A study of Mus musculus with 15 samples.

Results

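Loss of Helios on top of an existing loss of Eos was read from 6 of the 15 arrays of the series: the 3 arrays labelled dKO (Ikzf2-/-Ikzf4-/-, numbered 1 to 3) against the 3 labelled Ikzf4-/- (numbered 1 to 3). They were chosen by genotype and number in the sample titles. All 6 hold RNA of CD4+CD25+ cells, a regulatory T (Treg) cell fraction, sorted from mouse spleen, and both groups lack Ikzf4, so that the comparison differs by Ikzf2 alone as far as the labels go. The 3 WT arrays of the same normalization run (WT 1 to 3) entered the model and serve as a reference level, and 3 Ikzf2-/- arrays with WT 4 to 6, normalized in another run, show the loss of Helios in cells that keep Eos. The labels give neither age, sex, strain background nor deletion design, do not name the type of knockout allele, and do not say whether animals were pooled. No label says that arrays of a group came from separate animals, so the p-values describe how these arrays vary, and part of that variation may be technical.

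Helios (Ikzf2) and Eos (Ikzf4) belong to the Ikaros family, whose members bind DNA through zinc fingers near one end, pair with each other through zinc fingers at the other end, and recruit corepressor complexes to target genes. Treg cells carry both factors. Helios has been linked to the stability of the suppressive state during inflammation, and Eos to gene silencing together with Foxp3, the factor that defines Treg cells. The question of the comparison is what Helios still contributes once Eos is gone.

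Signals are log2 values of one probe set per gene, and 10525 genes passed a filter on dim genes (a group mean above log2 4.98, the median of all probe sets). A single group could carry a gene past the filter. Cpe, Bub1 and Itga9 passed only through dKO and Prrg4 only through Ikzf4-/-, in each case the group where the gene was higher. Their direction is therefore not independent of the filter. A difference is dKO minus Ikzf4-/-, the mean over 3 pairs of equal number. Array medians lay between 4.95 and 5.01 on the 6 arrays. The Y-linked gene Eif2s3y read 8.64 in Ikzf4-/- 3, 8.81 in the array labelled dKO 3 and 7.94 in dKO 2, against 2.97 to 3.09 in the other 3 arrays. Pair 2 therefore joined a sample with Y-linked signal to one without, and dKO 2 had an intermediate signal of Xist, the RNA of the inactive X chromosome (7.25, against 9.98 to 10.23 in the 3 arrays without Y-linked signal and 4.11 and 4.17 in the arrays numbered 3). The defining markers fitted the sort: Foxp3 read 10.85 to 11.16, Il2ra 10.97 to 11.03 and Cd4 9.76 to 10.05 over the 6 arrays. A bulk signal cannot tell fewer cells of a type from less RNA per cell.

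The targeted genes were examined first. Ikzf2 read 10.49, 10.71 and 10.81 in Ikzf4-/- 1, 2 and 3, and 10.10, 10.16 and 10.59 in dKO 1, 2 and 3. The dKO array was lower in every pair, by 0.38, 0.55 and 0.21, but the array labelled dKO 3 lay inside the range of the Ikzf4-/- arrays. Its mean difference of -0.38 (SE 0.09) had an adjusted p of 0.411 in limma and was not called. Ikzf4, deleted in both groups, read 8.13 to 8.22 in Ikzf4-/-, 8.07 to 8.20 in dKO and 7.83 to 8.07 in WT 1 to 3, so its signal was not lower in either knockout than in WT. In the other run the same Ikzf2 probe set read 10.06, 9.145 and 9.216 in Ikzf2-/- 1, 2 and 3 and 10.25 to 10.38 in WT 4 to 6. That difference was -0.86 (SE 0.20), larger than in dKO against Ikzf4-/-, and the reason was not tested. The positions of the probes against the deleted exons are not given in the sources used here, and probes outside a deletion would not test the labels. Of the remaining Ikaros factors, Ikzf1 (Ikaros itself) stood at 0.17 (SE 0.08), Ikzf3 (Aiolos) at 0.20 (SE 0.10) and Ikzf5 (Pegasus) at 0.04 (SE 0.10), none of which passed.

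A pair of genes passed limma's test adjusted over all genes at 0.05: Acadl fell and Iigp1 rose in dKO cells. That is 0.019% of the genes tested (0.0095% in each direction), and 763 genes (7.25%) had an unadjusted p under 0.05. Acadl encodes the mitochondrial long-chain acyl-CoA dehydrogenase, an enzyme of fatty acid oxidation. It read 7.25, 7.46 and 7.09 in the Ikzf4-/- arrays and 5.62, 5.80 and 5.67 in the dKO arrays, and the groups lay far apart. The group means were 7.27 ± 0.19 and 5.70 ± 0.09 (SD, n = 3 each), a log2 difference of -1.57 (SE 0.09, adjusted p = 0.0050 in limma), or 2.97-fold higher in Ikzf4-/-. WT 1 to 3 read 7.26 to 7.44, next to Ikzf4-/-.

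Iigp1 is an interferon-inducible GTPase that acts against vacuolar pathogens. It read 7.93, 7.93 and 8.12 in Ikzf4-/- and 9.09, 8.72 and 9.17 in dKO. The 3 dKO arrays stood above both other groups, as WT 1 to 3 read 8.23 to 8.54. The log2 difference was 1.00 (SE 0.09, adjusted p = 0.042 in limma), a 2.00-fold rise. Iigp1 belongs to a family with similar copies, so cross-hybridization between relatives cannot be told apart from it. Without the replicate block only Acadl passed (Iigp1 adjusted p = 0.077), and neither passed once Eif2s3y was added to the model (adjusted p = 0.0615 for both, differences of -1.58 and 1.11). The call of Acadl was lost without Ikzf4-/- 1 (adjusted p = 0.0843), dKO 1 (0.0691), dKO 2 (0.0567) or the array labelled dKO 3 (0.0671), and that of Iigp1 was lost without any array other than WT 1 (adjusted p = 0.0567 to 0.374, differences from 0.91 to 1.09).

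**Figure D1:**
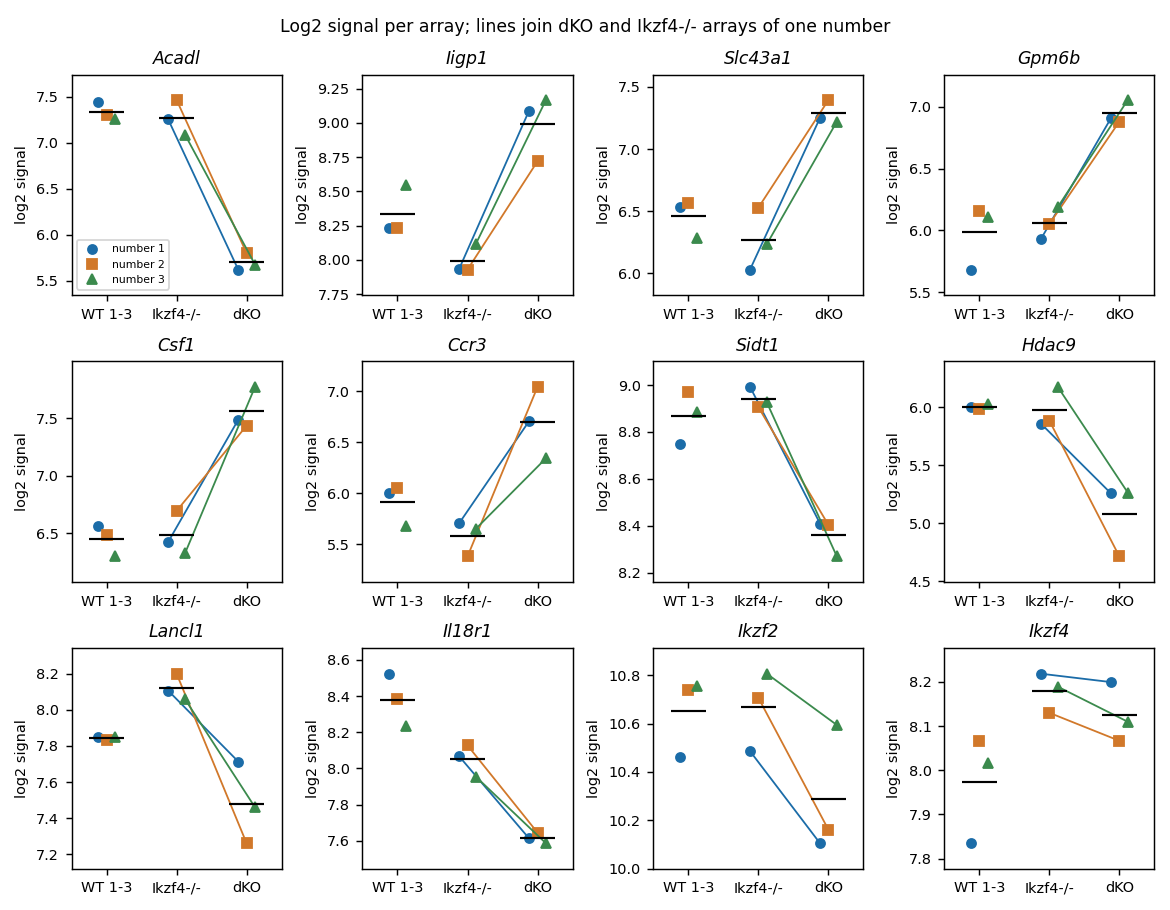
Log2 signal (vertical axes) of 12 genes in WT 1 to 3, Ikzf4-/- and dKO arrays; symbols mark the replicate number, lines join the dKO and Ikzf4-/- arrays of one number and black bars are group means. Acadl dropped from 7.09 to 7.46 in Ikzf4-/- to 5.62 to 5.80 in dKO, while Ikzf2 in the array labelled dKO 3 lay among the Ikzf4-/- arrays.

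Acadl lies near Ikzf2 on the same chromosome. The 20 genes on each side of Ikzf2 in RefSeq order were read as a list, which was drawn up with the value of Acadl known and holds Acadl, so its median is no separate support. Of these 40 genes, mostly pseudogenes and non-coding RNAs, 12 were on the array with a probe set of their own and 4 passed the filter. Acadl is 19 places away and Lancl1, which encodes a glutathione-binding protein, 12 places away on the same side. Lancl1 read 8.11, 8.20 and 8.06 in Ikzf4-/- and 7.71, 7.26 and 7.46 in dKO. The groups did not overlap, and its difference of -0.64 (SE 0.11) did not pass (adjusted p = 0.184 in limma). On the other side, the DNA repair gene Bard1 stood at 0.23 (SE 0.08) and the purine synthesis gene Atic at -0.11 (SE 0.14).

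Below the threshold, the 10 genes with the smallest p in the higher direction were, after Iigp1, Slc43a1, Gpm6b, Cpe, Csf1, Eea1, Ccr3, Plxdc1, Il17rb and Tnfsf8, with differences from 0.46 to 1.12 and adjusted p from 0.0591 to 0.184 in limma. In all 10 the 3 dKO arrays stood above the 3 Ikzf4-/- arrays, as they did in 4.22% of all genes tested. Since the 10 were chosen by p from these same arrays, the lack of overlap is no separate support. Slc43a1, an amino acid transporter, read 6.03, 6.53 and 6.23 in Ikzf4-/- and 7.25, 7.39 and 7.22 in dKO (difference 1.03, SE 0.10, adjusted p = 0.0591). Csf1, the macrophage growth factor M-CSF, read 6.42, 6.69 and 6.33 against 7.49, 7.43 and 7.77 (difference 1.08, SE 0.14, adjusted p = 0.151). Ccr3, a chemokine receptor best known from eosinophils, read 5.70, 5.38 and 5.65 against 6.71, 7.05 and 6.34 (difference 1.12, SE 0.16, adjusted p = 0.184). In each of these 3 genes the lowest dKO array stood above the highest Ikzf4-/- array, and dKO arrays also stood above all WT 1 to 3 arrays.

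The remaining members of that group stood at smaller differences: Gpm6b, a membrane glycoprotein, at 0.89 (SE 0.10), Cpe, the prohormone-processing carboxypeptidase E, at 0.76 (SE 0.09), Eea1, an early endosome tether, at 0.69 (SE 0.10), Tnfsf8, the CD30 ligand, at 0.62 (SE 0.10), Plxdc1 at 0.52 (SE 0.08) and Il17rb, a receptor chain for interleukin-25, at 0.46 (SE 0.07). Cpe was dim, with means of 4.72 in WT 1 to 3, 4.385 in Ikzf4-/- and 5.144 in dKO, and passed the filter only through dKO. Slc43a1 passed in 5 of 24 alternatives, Gpm6b in 3, Csf1 in 2 and Ccr3 in 1, and Cpe in 2 of the 23 that tested it.

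The 10 smallest p in the lower direction belonged, after Acadl, to Sidt1, Hdac9, Tanc2, 2810408A11Rik, Prrg4, Il18r1, Id3, Lancl1 and She, with adjusted p from 0.181 to 0.20 in limma. Sidt1, a transmembrane protein linked to RNA transport, read 8.99, 8.91 and 8.93 in Ikzf4-/- and 8.41, 8.40 and 8.27 in dKO (difference -0.58, SE 0.08). Hdac9, a class IIa histone deacetylase that opposes Treg function, read 5.86, 5.88 and 6.17 against 5.26, 4.72 and 5.26 (difference -0.89, SE 0.12). Il18r1, which binds interleukin-18 at the cell surface, read 8.07, 8.13 and 7.95 against 7.61, 7.64 and 7.59 (difference -0.43, SE 0.07). In these 3 genes the dKO arrays lay below the Ikzf4-/- arrays without overlap, which was also so in 4.22% of all genes. They too were chosen by p from these arrays, so this adds no separate support. Id3, an inhibitor of E proteins, read 8.81, 8.61 and 8.39 against 8.39, 7.88 and 7.80 (difference -0.58, SE 0.09), so that the groups touched at 8.39. With all 15 arrays and no block, Sidt1, Hdac9 and Lancl1 passed in limma beside Acadl (adjusted p = 0.0446, 0.0483 and 0.0483), while Iigp1 did not pass.

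The WT 1 to 3 level places these differences. Ikzf4-/- minus WT and dKO minus WT share arrays with the comparison and are given only as values. For Csf1 they were 0.03 and 1.12, for Gpm6b 0.07 and 0.96, for Sidt1 0.07 and -0.51 and for Hdac9 -0.03 and -0.93: Ikzf4-/- cells stood near WT. For other genes the Ikzf4-/- arrays stood off WT on the side away from dKO. The values were 0.45 and -0.21 for 2810408A11Rik, 0.40 and -0.24 for Tanc2, and -0.34 and 0.66 for Iigp1. Prrg4 stood above WT in both groups, at 0.66 and 0.17, and Il18r1 below WT in both, at -0.33 and -0.77.

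**Figure D2:**
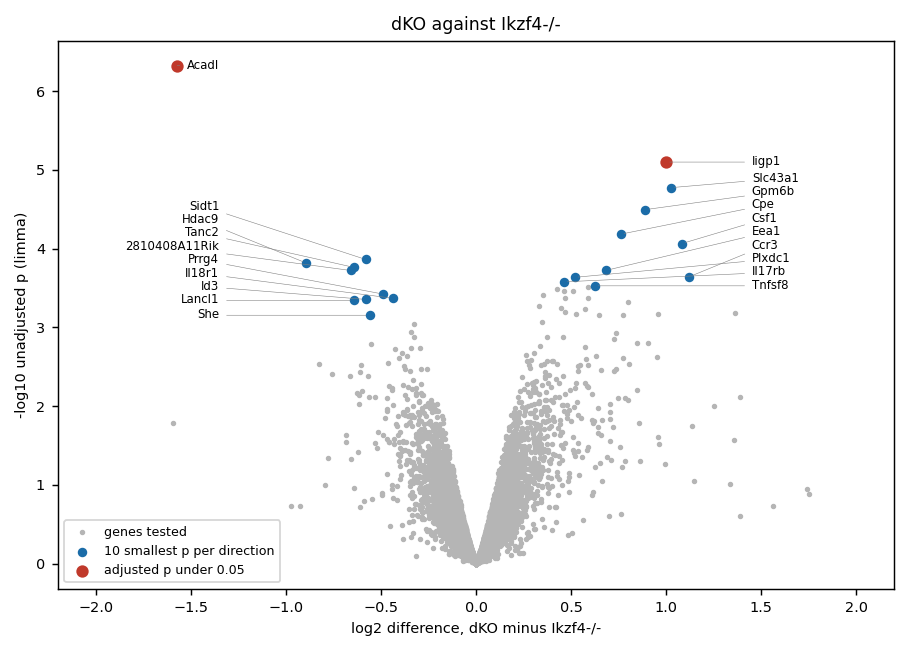
Log2 difference dKO minus Ikzf4-/- (horizontal axis) against -log10 of the unadjusted limma p (vertical axis) for 10525 genes; red points passed the adjusted threshold of 0.05 and blue points are the 10 smallest p per direction. Acadl stands apart at -1.57 and Iigp1 at 1.00.

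The promoters of Acadl and Slc43a1, 2 of the genes with the smallest p, are shown with TGGGAA, a form of the motif that Ikaros family factors bind. Shorter forms were not searched, and the Acadl promoter holds the shorter string gggaa. Each is the 250 bases before the RefSeq start (GRCm38.p6), 5′ to 3′ on the gene's strand, with TGGGAA or its reverse complement TTCCCA in capitals. Acadl lies on the minus strand at chr1:66863310-66863559 and holds no such motif, while Slc43a1 on the plus strand at chr2:84840073-84840322 holds 1.
Acadl: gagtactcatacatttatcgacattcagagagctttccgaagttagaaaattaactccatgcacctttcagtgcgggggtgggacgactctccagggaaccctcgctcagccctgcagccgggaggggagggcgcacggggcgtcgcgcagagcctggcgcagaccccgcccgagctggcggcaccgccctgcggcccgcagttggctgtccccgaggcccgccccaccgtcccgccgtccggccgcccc
Slc43a1: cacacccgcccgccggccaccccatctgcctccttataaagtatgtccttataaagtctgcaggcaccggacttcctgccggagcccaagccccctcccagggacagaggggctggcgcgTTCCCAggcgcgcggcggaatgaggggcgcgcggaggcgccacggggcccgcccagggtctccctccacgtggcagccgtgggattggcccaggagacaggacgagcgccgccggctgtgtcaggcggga
The motif, searched on both strands, was found in 4 (23.5%) of the 17 promoters listed for the 20 genes of smallest p and in 21.5% of 27025 promoters of all genes. A match is a description of letters, not of binding.

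Genes were next read in lists by role. All genes tested had a median difference of -0.001, and 14% of them were higher and 12.9% lower in dKO in all 3 pairs. Unadjusted p under 0.05 was reached by 4.1% in the higher and 3.15% in the lower direction. Except for Iigp1 and Acadl, no list member passed over all genes, so the following counts describe direction only.

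The activated and effector Treg list, genes of the suppressive state, had 20 tested members with a median difference of 0.40 (0.43, 0.12 and 0.57 in pairs 1, 2 and 3). In dKO cells 13 were higher in all 3 pairs and 1 was lower, and 11 and 1 had an unadjusted p under 0.05. The chemokine receptor Cxcr3, which guides cells to interferon-rich sites, read 7.96, 8.46 and 8.13 in Ikzf4-/- and 8.78, 8.88 and 9.20 in dKO (difference 0.77, SE 0.14, adjusted p = 0.20 in limma). The groups did not overlap. The transcription factor Maf stood at 0.35 (SE 0.06) and the costimulatory receptor Icos at 0.46 (SE 0.09). Il10, a suppressive cytokine, spread widely: 4.85, 7.15 and 5.40 in Ikzf4-/- against 6.48, 7.62 and 6.19 in dKO, a difference of 0.96 (SE 0.36). The mean of the list was 7.49, 8.04 and 7.46 in Ikzf4-/- and 8.01, 8.26 and 8.06 in dKO, so that Ikzf4-/- 2 lay above dKO 1. In WT 1, 2 and 3 it was 7.87, 7.75 and 7.40. Without pair 2, 18 of 20 were higher in both remaining pairs (26% of all genes), and without pair 3 it was 13 (24.7%).

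Chemokine receptors, which direct migration, included several of the larger differences. Of 14 tested, 6 were higher and 2 lower in all 3 pairs, with a median of 0.28 (0.45, 0 and 0.37 by pair). Besides Ccr3 and Cxcr3, Cxcr6 stood at 0.38 (SE 0.09) and Ccr4 at 0.71 (SE 0.20). Ccr2, which lies outside the naming rule and was picked after its values were seen, stood at 1.39 (SE 0.38), the highest of the list. Without the filter the median was 0.04. Of the other homing receptors and integrins, 5 of 19 were higher and 3 lower in every pair. The integrin chain Itga9, which passed the filter only through dKO, stood at 0.77 (SE 0.17). Itgb1 stood at 0.35 (SE 0.09), and S1pr1, the receptor for exit from lymphoid organs, at -0.29 (SE 0.08).

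Cytokine and receptor genes were mixed. Of 8 effector cytokines tested, 4 were higher and 1 lower in all pairs, with Csf1 first and Ifng (interferon gamma) reading 4.59, 4.93 and 5.21 in Ikzf4-/- against 5.91, 5.49 and 6.05 in dKO (difference 0.90, SE 0.18, adjusted p = 0.357 in limma). The dKO arrays lay above the Ikzf4-/- arrays. Of 10 TNF superfamily ligands 5 were higher and 2 lower. Tnfsf8 read 8.23, 8.38 and 7.96 against 8.94, 8.82 and 8.68, Tnfsf10 (TRAIL) stood at 0.80 (SE 0.13) and Tnfsf11 (RANKL) at 0.29 (SE 0.07). Their receptors leaned the other way, with 0 of 15 higher and 5 lower in every pair (median -0.12): Tnfrsf25 (DR3) stood at -0.34 (SE 0.11) and Fas at -0.22 (SE 0.08). In the IL-1 and IL-18 receptor family 2 of 8 were higher and 3 lower, with Il18bp, a decoy that binds interleukin-18, at 0.27 (SE 0.07), opposite to Il18r1.

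Signalling suppressors of the SOCS family had 3 of 8 members higher and 1 lower in every pair. Socs2 stood at 0.47 (SE 0.08, adjusted p = 0.20 in limma) and Socs3 at 0.42 (SE 0.10). Of 13 coinhibitory and costimulatory receptors 5 were higher and 2 lower, with the costimulator Cd28 at 0.35 (SE 0.06), Icos at 0.46 and Cd160 at -0.53 (SE 0.15). Among SLAM receptors and adaptors 3 of 8 were higher and 3 lower, and Slamf6 (0.36, SE 0.09) and Slamf7 (-0.35, SE 0.08) lay in opposite directions. Of 11 cytotoxic granule genes 2 were higher and 1 lower. Gzmb (granzyme B) read 6.44, 6.58 and 6.64 in Ikzf4-/- and 7.22, 7.67 and 8.17 in dKO (difference 1.13, SE 0.37), without overlap, while Ctsw (cathepsin W) stood at -0.60 (SE 0.14). Of 15 helper lineage regulators 4 were higher and 4 lower, with Prdm1 (Blimp-1) at 0.55 (SE 0.12) and Ahr at -0.28 (SE 0.08).

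Interferon-inducible GTPases all had positive differences: 8 of 8, of which 5 were higher in every pair (median 0.29; 0.47, 0.09 and 0.28 by pair). After Iigp1 came Gbp3 (0.51, SE 0.08), Irgm1 (0.38, SE 0.12) and Gbp4 (0.27, SE 0.09). Of the 19 other interferon response genes 16 had positive differences, 3 were higher and 0 lower in all 3 pairs, 0 reached an unadjusted p under 0.05, and their median was 0.10 (0.36, -0.02 and 0.01 by pair). Oas1a, an antiviral sensor of that list, stood at 0.32 (SE 0.14).

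Mitotic genes were the list with the highest median apart from the neutrophil markers below. Of 20 tested, 14 were higher in all 3 pairs and 0 lower, 13 reached an unadjusted p under 0.05, and the median was 0.57 (0.30, 0.58 and 0.73 by pair). Bub1, a spindle checkpoint kinase that passed the filter only through dKO, stood at 0.74 (SE 0.17). Ccna2 (cyclin A2) stood at 0.78 (SE 0.21) and Top2a (topoisomerase II) at 0.80 (SE 0.22). The list mean was 5.83, 6.47 and 6.00 in Ikzf4-/- and 6.12, 6.98 and 6.76 in dKO, and dKO 1 lay below Ikzf4-/- 2. In WT 1, 2 and 3 it was 6.28, 6.45 and 6.02. The array dKO 1 thus also lay below WT 1 and WT 2, and Ikzf4-/- 1 was the lowest of these arrays. Without pair 2, 17 were higher in both remaining pairs, and without pair 3 it was 14. DNA replication genes followed with 10 of 22 higher and 0 lower (median 0.18), among them Rrm2, a ribonucleotide reductase subunit (0.84, SE 0.17), Cdc45 (0.48, SE 0.14) and Ticrr (0.21, SE 0.06).

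Of 17 cholesterol synthesis genes, 16 had negative differences and 7 were lower in all pairs, with a median of -0.13 (-0.09, -0.03 and -0.28 by pair). Fdft1 (squalene synthase) stood at -0.30 (SE 0.09), Cyp51 at -0.13 (SE 0.06) and Sqle at -0.16 (SE 0.08). Ikzf4-/- minus WT was 0.24, 0.43 and 0.28 for these 3 genes. Of 14 resting and central T cell genes 5 were lower and 0 higher in all pairs (median -0.13), with Bach2, a repressor of effector genes, at -0.22 (SE 0.11). Heat shock genes leaned the other way in pairs 2 and 3 but not in pair 1. Of 13 tested, 12 had positive differences, and 2 were higher and 0 lower in every pair. The median was 0.15 (-0.02, 0.17 and 0.23 by pair). Bag3 stood at 0.46 (SE 0.14), Hsph1 at 0.66 (SE 0.23) and Hsp90aa1 at 0.20 (SE 0.08). In pair 1 Hsph1 and Hsp90aa1 were at -0.09 and -0.02.

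Of 22 core Treg genes tested, 7 were higher and 2 lower in every pair, with a median of 0.06. Without pair 2, 16 were higher in both remaining pairs (26% of all genes), and without pair 3 it was 8 (24.7%). The members of smallest p were Socs2 (0.47, SE 0.08) and Ccr4 (0.71, SE 0.20), whose dKO arrays stood above the Ikzf4-/- arrays. Foxp3 stood at 0.05 (SE 0.09), Il2ra at -0.02 (SE 0.07), Ctla4 at 0.11 (SE 0.08) and Tnfrsf18 (GITR) at 0.04 (SE 0.10), and the sign of Foxp3, Il2ra and Tnfrsf18 turned in 1, 4 and 4 of 24 alternatives. Rgs16, a brake on G protein signalling, stood at -0.37 (SE 0.14). Of the T cell receptor and proximal signalling list 4 of 15 were higher and 3 lower (median 0.06), with the kinase genes Zap70 at 0.19 (SE 0.09) and Prkcq at -0.14 (SE 0.07). Of the interleukin-2 receptor, JAK and STAT list 1 of 10 was higher and 1 lower (median -0.01), with Jak1 at -0.11 (SE 0.06), Stat3 at 0.10 and Jak2 at 0.10 (SE 0.08 and 0.09).

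Immediate early genes had 2 of 17 higher and 0 lower in every pair (median 0.03), with Jun at 0.54 (SE 0.21) and Myc at -0.15 (SE 0.09). Respiratory complex genes had 6 of 22 higher and 0 lower (median 0.04), with Sdhb at 0.12 (SE 0.05). Glycolysis genes had 4 of 12 higher and 3 lower (median 0.01), with Ldha at 0.17 (SE 0.06) and Slc16a3 at -0.16 (SE 0.06). The fatty acid oxidation list held Acadl but otherwise stayed near 0: 2 of 15 were higher and 2 lower (median -0.05), with Acads at -0.14 (SE 0.07), Cpt2 at 0.17 (SE 0.10) and Etfb at 0.12 (SE 0.07). Corepressors used by Ikaros factors and class IIa deacetylases had 3 of 21 higher and 1 lower, the latter being Hdac9, while Chd4 of the NuRD complex stood at -0.09 (SE 0.06) and Mbd3 at 0.12 (SE 0.10).

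**Figure D3:**
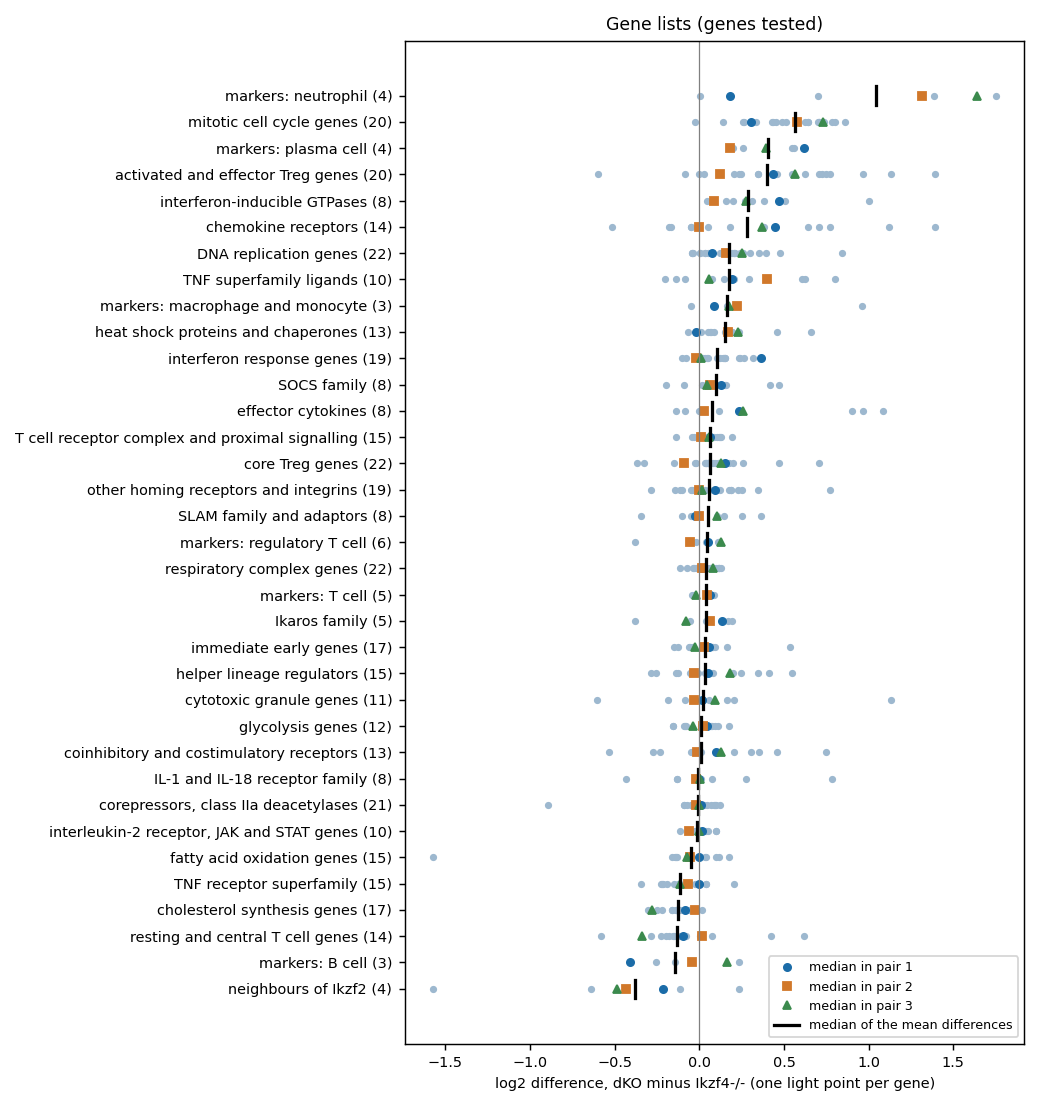
Log2 difference dKO minus Ikzf4-/- (horizontal axis) of each tested gene (light points) in the lists with at least 3 tested genes, whose number is in brackets; coloured symbols are list medians in each pair and black bars medians of the mean difference. Mitotic and activated Treg genes lie to the right (medians 0.57 and 0.40).

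Markers of other cells were read on the same arrays. Neutrophil markers were the list that differed most: of 4 tested, 3 were higher in every pair, the median was 1.04 (0.18, 1.31 and 1.64 by pair), and 0 passed. S100a8 and S100a9, calprotectin subunits, stood at 1.39 (SE 1.10) and 1.75 (SE 1.02) and Ngp at 0.70 (SE 0.56), while Camp stood at 0.00 (SE 0.19). Ltf and Mmp8, which did not pass the filter and are not in that median, differed by 0.05 and 0.09. The mean over all 6 neutrophil markers was 5.16, 4.36 and 4.99 in Ikzf4-/- 1, 2 and 3 and 5.28, 5.25 and 5.97 in dKO, against 7.11 in WT 1, the highest of the 9 arrays. Lyz2 of the macrophage list stood at 0.96 (SE 0.34) and Csf1r at 0.16 (SE 0.09), and Cd68 at -0.05 (SE 0.09). The B cell list mean lay between 4.34 and 4.47 on all 6 arrays, with 3 of 9 genes above the filter. In WT 1, 2 and 3 it was 6.60, 4.44 and 4.42, so that WT 1, which entered the model, stood apart here too. Of the B cell genes above the filter, Cd22 passed only through WT (mean 5.29). Plasma cell markers had a median of 0.40 over 4 tested genes, of which Prdm1 is also an effector Treg gene and Jchain read 4.76 to 7.40 in dKO against 4.80 to 5.76 in Ikzf4-/-. Of the CD8, natural killer, dendritic, erythroid and platelet lists 1 gene each passed the filter: Cd8b1 (-0.27, SE 0.16), Eomes (-0.26, SE 0.18), Zbtb46 (-0.04, SE 0.07), Alas2 (0.03, SE 0.12) and Itga2b (-0.01, SE 0.06). The T cell list mean was 10.83 to 10.85 in Ikzf4-/- and 10.82 to 10.91 in dKO. The part of the neutrophil signal in the mitotic, effector and cytokine differences was not tested.

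Loss of Helios in cells that keep Eos, Ikzf2-/- against WT 4 to 6, shares no array with the comparison above and was fitted on all 15 arrays. The 10 genes of smallest p in the higher direction were all positive there too, as were 87 of the first 100, against 55% of all genes. In the lower direction 6 of the first 10 and 61 of the first 100 were negative there. These counts lay nearer to the share of negative genes among all genes than the higher counts did to the positive share. Ikzf2-/- 3 stood furthest apart, with a neutrophil marker mean of 9.30 and a B cell marker mean of 7.54. In WT 4 to 6 these means were 4.97 to 5.61 and 4.99 to 5.20. Ikzf2-/- 1 and 2 also lay above WT 4 to 6 in neutrophil markers (6.72 and 6.06), and their B cell means were 5.61 and 4.83. Ikzf2-/- 2 had the lowest mean of regulatory T cell markers, which include Ikzf2 (9.58, against 9.97 to 10.27 in the others). Its CD8 marker mean was the highest (6.00, against 5.09 to 5.40). Leaving out Ikzf2-/- 3 therefore does not remove all such differences. Without Ikzf2-/- 3 the counts of same sign were 10, 83, 5 and 60, and 48.9% of all genes were positive. Over all 10525 genes the differences correlated at r = 0.314 (0.21 without Ikzf2-/- 3), across genes that are not independent replicates. Ccr3 stood at 1.03 (SE 0.17) without Helios alone and 1.12 when Helios was lost on top of Eos, Slc43a1 at 1.22 (SE 0.28) and 1.03, Csf1 at 0.71 (SE 0.16) and 1.08, Sidt1 at -0.46 (SE 0.09) and -0.58, and Il18r1 at -0.51 (SE 0.13) and -0.43. Without Ikzf2-/- 3 the values with Eos present were 0.99 for Ccr3, 0.83 for Slc43a1, 0.57 for Csf1, -0.43 for Sidt1 and -0.48 for Il18r1. Mitotic genes had a median of 0.81 there, effector Treg genes 0.35 and chemokine receptors 0.33, while interferon-inducible GTPases had 0.03 and cholesterol synthesis genes -0.03. Without Ikzf2-/- 3 these medians were 0.49, 0.21, 0.22, -0.09 and -0.02. The neutrophil markers had a median of 2.45 there, and 1.40 without that array, and their part in these medians was not tested.

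The difference between both settings was tested gene by gene as an interaction. Limma called 0 of 10525 genes (0%), with 665 (6.32%) at an unadjusted p under 0.05 and a smallest adjusted p of 0.769. The 5 smallest p belonged to Acadl (-1.97, SE 0.37), Mis18a (-0.91), Lancl1 (-0.64, SE 0.15), Ppdpf (-0.78) and Mrps34 (-0.58). Acadl read 5.78, 5.83 and 5.32 in WT 4 to 6 and 6.02, 5.32 and 6.77 in Ikzf2-/-, with overlapping arrays. That difference was 0.40 (SE 0.26), and 0.03 without Ikzf2-/- 3. In the first run Acadl read 7.26 to 7.44 in WT 1 to 3 and 5.62 to 5.80 in dKO. The signals of WT 4 to 6 were thus near those of dKO, but the runs were normalized apart, so levels cannot be compared between them. WT signals of other genes differed between the runs as well. Lancl1 read 7.83 to 7.85 in WT 1 to 3 and 6.73 to 6.90 in WT 4 to 6. Csf1 read 6.30 to 6.56 and 6.48 to 6.69. The interaction of Acadl compares settings with unlike WT signals. Whether a low signal limited a fall in Ikzf2-/- was not tested. Without Ikzf2-/- 3, 0 genes passed the interaction test in limma (728 at an unadjusted p under 0.05). Without Ikzf2-/- 2 the interaction of Acadl passed (-2.32, adjusted p = 0.0093), as it did with array weights (-1.96, adjusted p = 0.0026). Without Ikzf2-/- 1, 4 other genes passed: Tbrg3, Thada, Ppdpf and H2az2. Gpm6b (0.18 with Eos, 0.89 without), Hdac9 (-0.20 and -0.89) and Tnfsf8 (0.14 and 0.62) had interactions of 0.71, -0.69 and 0.48 with adjusted p of 0.769 to 0.776, so a dependence on Eos was not shown for them.

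**Figure D4:**
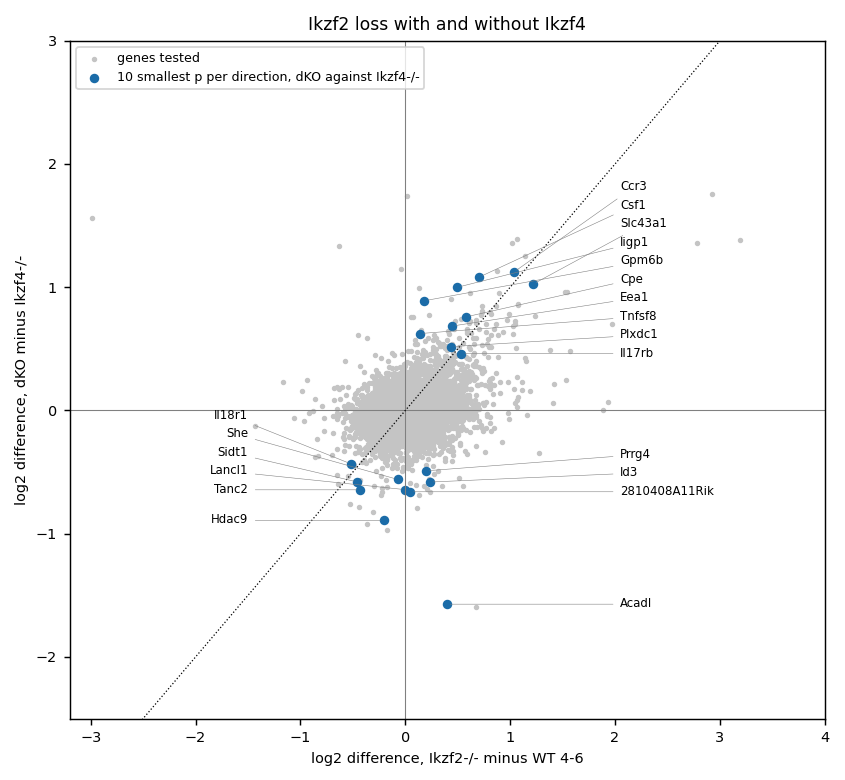
Log2 difference Ikzf2-/- minus WT 4 to 6 (horizontal axis) against dKO minus Ikzf4-/- (vertical axis) for 10525 genes, with the 10 smallest p per direction of the latter in blue and a dotted line of equal values. The 10 higher genes all lie to the right of 0, and Acadl lies at 0.40 and -1.57.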

How the data were processed

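RNA of sorted CD4+CD25+ spleen cells had been amplified and hybridised to single-colour Affymetrix arrays. The log2 signals deposited by the authors came from RMA (background correction, quantile normalization and probe summary), and Affymetrix Expression Console 1.3.1 is named beside it in the submitters' processing notes. Scanner files were not used here. RMA compresses the changes of dim genes. Exactly equal values between arrays (2286 probe sets on average within the 9 arrays of WT 1 to 3, Ikzf4-/- and dKO, 0.0741 across) were read as one normalization run.

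Of 35556 probe sets, 21789 had 1 gene symbol in the platform annotation (21698 updated to GRCm38.p6), 1621 had several and 12146 were unnamed. For each gene the probe set of the highest mean was kept. Limma 3.58.1 in R 4.3.3 fitted the 9 arrays with group means and the replicate number as a block, with the Benjamini-Hochberg adjustment over 10525 genes and a threshold of 0.05. Deviations of equal numbers correlated between dKO and Ikzf4-/- at 0.435, 0.197 and 0.269. No label states a pairing, so treating equal numbers as pairs remains an assumption. The interaction used all 15 arrays without the block. The procedure was tested on simulated data.

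Always named were the 5 Ikaros family genes and Foxp3, Ctla4, Il2ra and Tnfrsf18, then called genes (up to 15 per direction), the 10 smallest p of a direction with under 5 calls, the members of smallest p in each list (3, beside called ones) and the 5 smallest interaction p. Members and lists were chosen with earlier results of these data known. The number of arrays limits precision.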

Additional observations from a re-analysis of the deposited data

How the results depend on the processing

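Limma called 2 genes in dKO against Ikzf4-/-. The count was 1 with no replicate block, both on the 9 arrays and on the 6 alone (2 on those 6 with the block, Acadl and Car5b), 7 with all 15 arrays and no block, 1 without a filter, 4 with the stricter filter, 6 with array weights and 0 with the Eif2s3y covariate (605 at an unadjusted p under 0.05). It ranged from 0 to 5 when single arrays were left out (5 without WT 1, 0 without Ikzf4-/- 1 or any dKO array), and was 0 without any of the 3 replicate numbers. Leaving out arrays also removes residual degrees of freedom. The difference of Acadl stayed between -1.65 and -1.49 and that of Iigp1 between 0.91 and 1.11 over 24 alternatives each. Acadl passed in 16 of these alternatives and Iigp1 in 7. The interaction count was 0, with 1 under array weights and 0 to 4 when single arrays were left out. No named gene past the threshold turned its sign. Of 40 list medians, 17 moved beyond the spread of the pairs under at least 1 alternative. Counts over 2 pairs and values without Ikzf2-/- 3 were added after seeing the data.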

Other observations

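Several genes outside the naming rule were picked after their values were seen. Car5b, a mitochondrial carbonic anhydrase, differed by 1.24, 1.26 and 1.25 in pairs 1, 2 and 3. With the 9 arrays it did not pass in limma (1.25, SE 0.36, adjusted p = 0.551), but it passed with the 6 arrays alone and the block (adjusted p = 0.0307) and without WT 1 (adjusted p = 0.0047). Ikzf2-/- minus WT 4 to 6 was 1.15. Ifitm3, an antiviral membrane protein, stood at 1.36 (SE 0.24, adjusted p = 0.20) and was higher in all 3 pairs, by 1.85, 0.71 and 1.52.

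Some large differences were uneven over the pairs. The peptide transporter gene Slc15a2 stood at -0.19, -1.17 and -3.41 in pairs 1, 2 and 3, and Gdpd3, whose high value came from pair 3 alone, at -0.43, -0.26 and 5.37. Neither passed (adjusted p = 0.604 and 0.822 in limma). Eif2s3y stood at 0.08, 4.97 and 0.17.

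Of 6736 further probe sets with several symbols or none that passed the filter, 0 passed in limma, with 415 at an unadjusted p under 0.05.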
